A study of Mus musculus with 2 samples.

Results

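Interleukin-33 (Il33) and the subunits of its receptor, Il1rl1 (ST2) and Il1rap (IL-1RAcP), were followed across the cells of the mouse mesentery, the sheet of fat, vessels and serosa that carries the gut. The 3 genes were taken by symbol from the 27998 genes of the count matrix, and each matched 1 row. Whole mesenteries of 2 untreated wild-type male C57BL/6N mice, 1 library per mouse, had been dissociated with Liberase DH, a collagenase blend, and captured on the Chromium 3′ system with version 2 chemistry. No group was treated, so the comparisons run between cell classes of the same animals, and nothing was compared between the mice. The age of the mice is not given as a number in the labels.

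IL-33 belongs to the IL-1 family and is stored in the nucleus of barrier and stromal cells, from which it is released when cells are damaged; for this reason it is called an alarmin. It binds ST2, which then recruits IL-1RAcP, the signalling partner that ST2 shares with the IL-1 and IL-36 receptors. The complex acts through MYD88, IRAK kinases and NF-κB. Group 2 innate lymphoid cells (ILC2), tissue regulatory T cells and mast cells are the best known bearers of ST2, and ILC2 answer IL-33 with IL-5, IL-13 and GM-CSF.

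Il33 (ENSMUSG00000024810) lies on chromosome 19, from 29925114 to 29960718 on the plus strand of GRCm38, and no other gene of GENCODE M21 overlaps it. Il1rl1 (ENSMUSG00000026069) lies on chromosome 1 from 40429570 to 40465415, also on the plus strand and without an overlapping gene. Il1rap (ENSMUSG00000022514) lies on chromosome 16 from 26581704 to 26730117 on the plus strand, and 1 gene on the minus strand, Gm20319, overlaps it. Il1rl1 is known for a distal start used mainly by blood cells and a proximal start used mainly by fibroblasts, and for a short transcript that encodes soluble ST2. GENCODE lists 5 coding transcripts of Il1rl1 with 5 different 3′ ends. The counts are per gene, so neither the start used nor the soluble form can be read from them.

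The starts are shown because the genes were detected in different cells, Il33 in stroma and serosa and Il1rl1 in lymphocytes. RefSeq (GRCm38.p6) gave 2 starts for Il33, 2 for Il1rl1 and 1 for Il1rap, and the 250 bases before each are given 5′ to 3′ on the plus strand. Motifs were searched on both strands and matches are in capitals. The motif of the TATA box was spelled TATAAA. For the GATA factors the spellings searched were TGATAA and also, as another form, AGATAA. The AP-1 motif, spelled TGANTCA, was in none of these windows. No spelling overlapped another match. Distances are counted back from the start.
Il33 distal, chr19:29924863-29925112: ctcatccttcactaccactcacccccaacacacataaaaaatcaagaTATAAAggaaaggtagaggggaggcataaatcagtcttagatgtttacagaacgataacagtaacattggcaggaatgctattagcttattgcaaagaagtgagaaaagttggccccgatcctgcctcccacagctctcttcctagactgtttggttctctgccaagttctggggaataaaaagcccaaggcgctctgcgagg
Il33 proximal, chr19:29945540-29945789: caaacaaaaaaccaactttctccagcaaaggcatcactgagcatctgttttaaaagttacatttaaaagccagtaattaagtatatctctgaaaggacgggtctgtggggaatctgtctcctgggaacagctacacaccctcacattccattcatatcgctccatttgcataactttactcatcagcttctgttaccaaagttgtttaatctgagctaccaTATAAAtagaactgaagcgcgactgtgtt
Il1rl1 distal, chr1:40429320-40429569: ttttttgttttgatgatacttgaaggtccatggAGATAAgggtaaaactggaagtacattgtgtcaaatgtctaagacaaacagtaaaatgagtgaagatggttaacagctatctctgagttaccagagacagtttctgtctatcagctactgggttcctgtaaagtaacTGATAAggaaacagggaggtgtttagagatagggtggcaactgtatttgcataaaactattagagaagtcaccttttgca
Il1rl1 proximal, chr1:40439379-40439628: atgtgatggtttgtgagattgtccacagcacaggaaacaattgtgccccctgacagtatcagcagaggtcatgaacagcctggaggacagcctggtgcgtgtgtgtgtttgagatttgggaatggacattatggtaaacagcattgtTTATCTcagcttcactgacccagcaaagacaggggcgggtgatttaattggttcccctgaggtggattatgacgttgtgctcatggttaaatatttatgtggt
Il1rap, chr16:26581455-26581704: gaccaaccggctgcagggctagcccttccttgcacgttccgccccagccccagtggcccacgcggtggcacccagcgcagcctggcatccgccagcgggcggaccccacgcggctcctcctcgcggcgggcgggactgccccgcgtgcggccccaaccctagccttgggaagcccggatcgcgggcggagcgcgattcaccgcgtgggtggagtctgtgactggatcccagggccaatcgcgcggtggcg

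The base composition of these windows differed. G and C made up 74.4% of the Il1rap window, against a median of 52.4% over the 32851 windows of this length in the table. They made up 45.2% and 39.6% of the Il33 windows and 37.6% and 46.4% of the Il1rl1 windows. TATAAA stood 29 bases before the proximal start of Il33 and 203 before the distal one, and 12.4% of all windows hold it. The distal window of Il1rl1 held TGATAA 80 bases and AGATAA 217 bases before the start, and the proximal one held AGATAA, read on the other strand, 103 bases before it. TGATAA is in 7.94% and AGATAA in 9.99% of all windows, and TGANTCA in 6.75%. These are letter matches and not measured sites.

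Classes were rebuilt from markers, with none of the 3 genes used to cluster or to name cells. The 2 libraries held 1517 and 1687 barcodes with medians of 3065 and 2663 unique molecular identifiers (UMIs, the counted transcripts) and no barcode in common. After filtering, 3100 cells in 19 clusters were analysed, which markers sorted into 12 classes. Il33 was counted 360 times, in 244 cells, Il1rl1 337 times, in 174 cells, and Il1rap 69 times, in 66 cells. Levels are counts per 1000000 UMIs of a class (CPM) and are given per library; a 3′ library counts transcripts by their ends, so they are not divided by length. Few cells held 2 of the genes. UMIs of Il33 and Il1rl1 were together in 1 cell, and those of Il1rl1 and Il1rap in 1 cell. Of the 66 cells with Il1rap, 9 held Il33, beside 244 of all 3100 cells. With counts this sparse, few joint cells do not show that ligand and receptor are kept apart.

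Il33, the ligand, was found in mesothelial-like cells, which cover the mesentery on its peritoneal side, and in fibroblast-like cells. In mesothelial-like cells it stood at 91.8 CPM in library 1 and 100.1 CPM in library 2 (mean 95.9 ± 5.89, SD, n = 2). In fibroblast-like cells it stood at 58.9 and 55.5 CPM (mean 57.2 ± 2.43, SD, n = 2). The groups did not overlap, with the mesothelial-like class higher in both libraries. Because fibroblast-like cells were more numerous, 1020 against 244, they held 55.8% of all Il33 UMIs and mesothelial-like cells 39.4%. The share in mesothelial-like cells was 26.8% in library 1 and 48.8% in library 2, in which 67 and 177 cells of the class were captured.

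The remaining classes held few or no Il33 UMIs. Monocyte-like cells gave 8 UMIs in library 1 and 6 in library 2, or 17.4 and 9.26 CPM. T-like, macrophage-like and endothelial-like cells gave 1 UMI each, all in library 2, and these levels overlapped those of the classes at 0. Pericyte-like, dendritic-like, B-like, NK- or ILC1-like, ILC2-like and regulatory-T-like cells gave none. A count of 0 allows up to 4.33 CPM in pericyte-like cells and 11.6 CPM in ILC2-like cells over both libraries, but 77.3 CPM in regulatory-T-like cells, which were only 24, so absence there was not detectable at this depth. The single endothelial UMI came from 344 endothelial-like cells, a class with 14 of 14 endothelial markers raised.

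**Figure D1:**
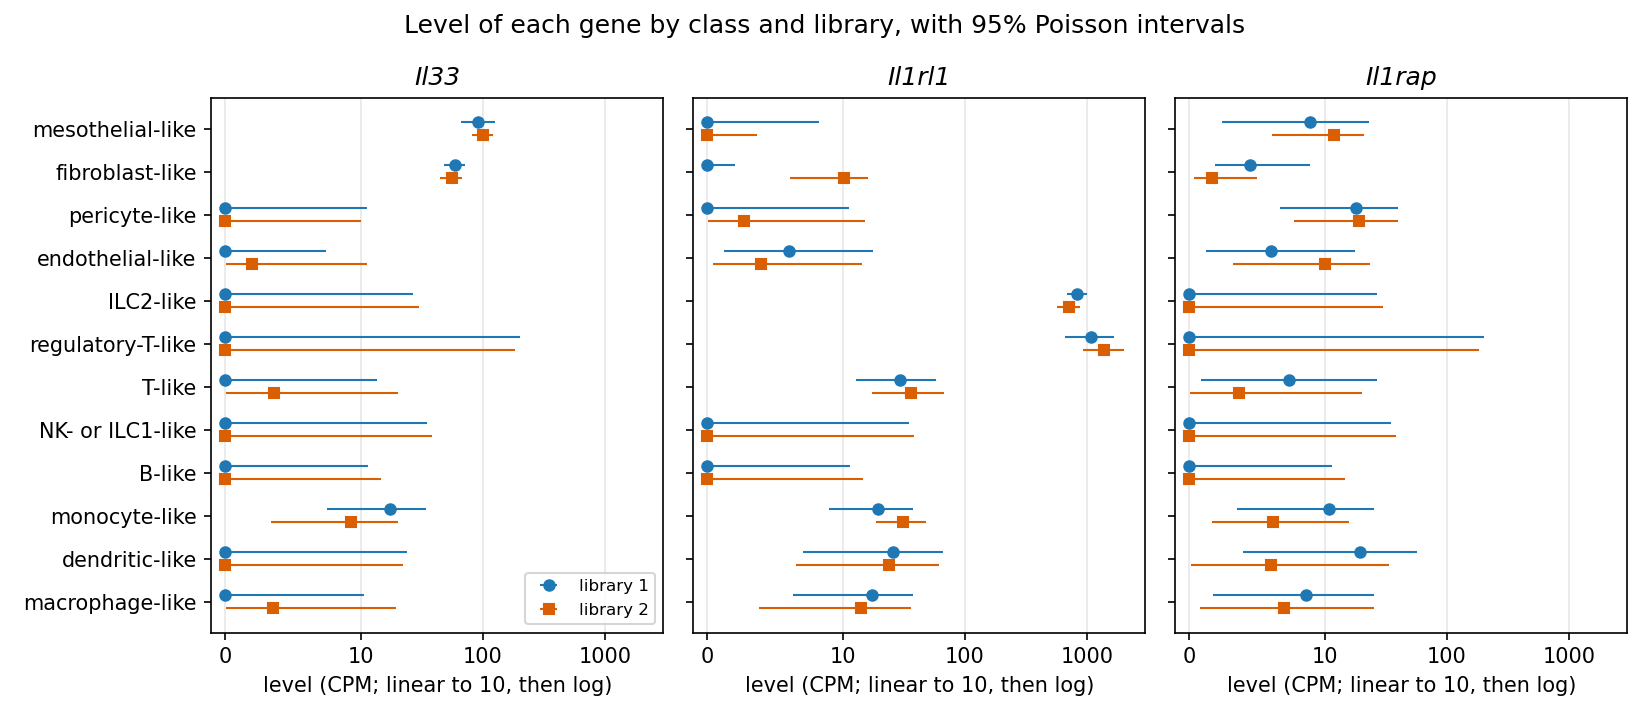
Level of Il33, Il1rl1 and Il1rap in 12 classes, in CPM on an axis that is linear to 10 and logarithmic above; circles are library 1, squares library 2, and bars are exact 95% Poisson intervals, which cover counting error only. Il33 was highest in mesothelial-like and fibroblast-like cells, Il1rl1 in regulatory-T-like and ILC2-like cells, and the highest level of Il1rap in any sum was 19.4 CPM.

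The monocyte-like signal came mostly from barcodes that also carried fibroblast transcripts. Of the 8 monocyte-like cells with an Il33 UMI, 7 held at least 10 UMIs of the 14 fibroblast markers, and the median over the 8 was 129. Of the 207 without an Il33 UMI, 50 did, and the median over the 207 was 1. Without such barcodes the level in monocyte-like cells was 1.25 CPM, and the level in fibroblast-like cells was 58.1 CPM. Scrublet, the doublet caller, had marked 39 barcodes in library 1 and 4 in library 2, which were removed. The mixed barcodes described here were among the cells that remained, and how they arose was not tested.

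Sums of counts per class and library were compared with edgeR's quasi-likelihood test, with library as a block and Benjamini-Hochberg adjustment over all 7560 genes tested. All p-values rest on 2 animals. Il33 was lower in fibroblast-like than in mesothelial-like cells by a log2 fold change of -0.58 ± 0.23 (SE), adjusted p = 0.0441, and 33.8% of genes were called in this comparison. The call is close to the threshold: 6 of 9 other settings lost it, with adjusted p from 0.0112 to 0.152 and log2 fold changes from -0.69 to -0.51. In fibroblast-like cells Il33 was higher than in endothelial-like cells, with a log2 fold change of 5.66 ± 0.64 (SE) and adjusted p = 3.26e-10 by edgeR, where 43% of genes were called. Il33 was also higher than in macrophage-like cells (4.87 ± 0.75 on the log2 scale, adjusted p = 5.04e-07 by edgeR), with 41.8% of genes called. Against pericyte-like cells the adjusted p by edgeR was 2.91e-09, with 40.4% of genes called. Pericyte-like cells held no Il33 UMI, so the fold is a lower bound, at least 6.47-fold higher in library 1 and at least 6.72-fold in library 2, with the floor of 3 counts per library. The calls against endothelial-like, macrophage-like and pericyte-like cells held under all 9 other settings.

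Per cell, Il33 was sparse. It was seen in 34.3% and 37.3% of mesothelial-like cells and in 16.5% and 12.1% of fibroblast-like cells, but mesothelial-like cells were deeper, with median counts of 6780 and 5771 UMIs against 3654 and 3020.5. After each cell was thinned to 1000 UMIs, 9.09% (exact 95% interval 3.41 to 18.7%) and 10.8% (6.63 to 16.3%) of mesothelial-like cells kept an Il33 UMI. In fibroblast-like cells the thinned shares were 4.76% (3.01 to 7.12%) and 5.45% (3.68 to 7.74%). The thinned shares were lower in fibroblast-like cells in both libraries, and the intervals of the classes overlapped. Single cells held at most 6 Il33 UMIs in the fibroblast-like and 7 in the mesothelial-like class.

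Among the 6 fibroblast-like clusters, Il33 was highest in cluster 14, the cells led by Krtdap, Pi16, Sbsn and Dmkn. Il33, the receptor genes and the lists of IL-1 family and receptor signalling genes took no part in the clustering. Cluster 14 held 132.3 and 124.9 CPM in 61 and 45 cells, beside 91.8 and 100.1 CPM in the mesothelial-like class. Cluster 4, led by Has2, which makes hyaluronan, and by Nov and Fbn1, followed with 64.7 and 80.9 CPM. Clusters 5 (Hmcn2, Has1, Tnfaip6, Il6), 12 (Mfap4, Mgp, Eln) and 11 (Plau, Nfia) overlapped one another, with 45.2 and 32.7, 30.01 and 40.2, and 13.6 and 47.9 CPM. Cluster 6, led by the chemokine Cxcl14 and by Fam150b, was at 29.0 and 10.1 CPM, which overlapped cluster 11.

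**Figure D2:**
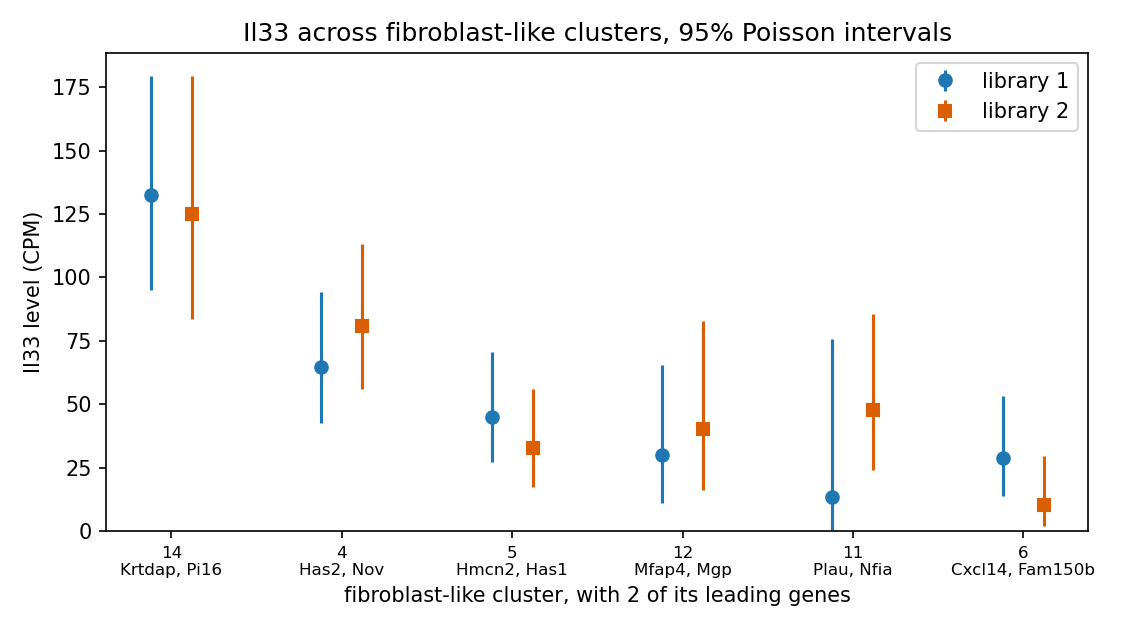
Il33 level in CPM in the 6 fibroblast-like clusters, ordered by mean; circles are library 1, squares library 2, and bars are exact 95% Poisson intervals. Cluster 14 sits at 124.9 and 132.3 CPM, and the next highest value is the 80.9 CPM of cluster 4 in library 2.

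Each cluster was set against the mean, on the log scale, of the other fibroblast-like clusters with the same test over 5179 genes. Il33 was higher in cluster 14 (log2 fold change 1.70 ± 0.26, SE, adjusted p = 2.33e-06 by edgeR), where 19.7% of genes were called, and the call held under all 4 other settings run. Il33 was lower in cluster 6 (log2 fold change -1.41 ± 0.39, SE, adjusted p = 0.0084 by edgeR), where 15.3% of genes were called; with DESeq2's Wald test the adjusted p was 0.0999, and the difference of log2(CPM + 1) was -0.58 in library 1 and -2.40 in library 2. Cluster 4 did not pass, at 0.76 ± 0.26 (SE, log2) and adjusted p = 0.0593 by edgeR, with 9.65% of genes called there. Clusters 5, 12 and 11 did not pass either, with adjusted p of 0.8, 0.552 and 0.863 by edgeR; 3.71%, 8.01% and 5.33% of genes were called in those comparisons. Cluster 11 was shallow, with a median of 1625 UMIs, held 27 cells of library 1 and 105 of library 2, and its largest calls were Vps37b, Rgs2, Cd52 and Srgn, genes of leukocytes among them.

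Mesothelial-like cells formed 1 cluster at the resolution used. At a finer resolution of 2.0 they split into cells led by Igfbp2, Upk3b and Fgf1 and cells led by Slpi, Msln and Krt8. Il33 was at 96.8 ± 13.1 CPM (SD, n = 2) in the former and 94.1 ± 1.36 CPM in the latter, so the mesothelial clusters overlapped in Il33.

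The genes on the IL-1 family list differed in where they were found. Of the 8 tested genes of the family, 1 was higher and 2 lower in fibroblast-like than in mesothelial-like cells, against 33.8% of all genes called. Il1r1, the receptor of IL-1, was at 78.7 and 113.8 CPM in fibroblast-like and 13.4 and 11.9 CPM in mesothelial-like cells (adjusted p = 1.91e-10 by edgeR). Il18, another cytokine of the family, was at 13.6 and 11.4 CPM in fibroblast-like and 64.9 and 84.3 CPM in mesothelial-like cells (adjusted p = 1.31e-07 by edgeR). Il18r1, a receptor chain for IL-18, was also lower in fibroblast-like cells, at 1.70 and 4.00 CPM against 8.95 and 13.9 CPM. Il1b was not a stromal transcript: dendritic-like cells held a mean of 2197 CPM and monocyte-like cells 1167 CPM. Il1r1 was lower in the Il33-high cluster 14, at 6.45 and 25.9 CPM, than in the other fibroblast-like clusters (log2 fold change -2.51 ± 0.43, SE, adjusted p = 1.82e-05 by edgeR).

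Of the 9 other alarmin genes tested, 2 were higher and 1 lower in fibroblast-like than in mesothelial-like cells, a share near the 33.8% of all genes called. Tslp, a cytokine that like IL-33 acts on ILC2, was at 19.8 and 26.3 CPM in fibroblast-like and 4.48 and 3.97 CPM in mesothelial-like cells (adjusted p = 0.00015 by edgeR). Macrophage-like cells held more, at 86.2 and 80.9 CPM. Anxa1, an anti-inflammatory annexin, was higher in fibroblast-like cells, at 746.7 and 533.4 against 483.5 and 419.3 CPM. Il25, the remaining ILC2-activating cytokine of the list, had no UMI in any class. Of the proteases known to cut IL-33, 4 could be tested in this comparison and none was called; the neutrophil enzymes Ctsg and Elane and the mast cell enzyme Tpsab1 had no UMI in the leukocyte classes, and Gzmb was at a mean of 335.5 CPM in NK- or ILC1-like cells.

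Il1rl1, the IL-33-binding subunit, was found in lymphocytes. ILC2-like cells, named from markers that did not include it, held 829.4 CPM in library 1 and 703.7 CPM in library 2 (mean 766.5 ± 88.9, SD, n = 2). Regulatory-T-like cells, a cluster of 10 and 14 cells with Foxp3, Ikzf2 and Ctla4, held 1080 and 1381 CPM (mean 1230 ± 213, SD, n = 2). Both libraries of the regulatory-T-like cells lay above both of the ILC2-like cells, but the intervals overlapped, at 659.5 to 1668 and 917.6 to 1996 CPM against 684.2 to 996.4 and 562.9 to 869.1 CPM. An Il1rl1 UMI was seen in 91 of 135 ILC2-like cells and in 16 of 24 regulatory-T-like cells. ILC2-like cells held 59.4% of all Il1rl1 UMIs and regulatory-T-like cells 14.2%.

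T-like, monocyte-like and dendritic-like cells followed, far lower. T-like cells were at 29.6 and 36.55 CPM, monocyte-like cells at 19.6 and 30.9 CPM and dendritic-like cells at 25.9 and 24.1 CPM. Monocyte-like cells overlapped both others, and T-like cells lay above dendritic-like cells in both libraries. Macrophage-like cells came next, below those 3 classes in both libraries, at 17.2 and 14.1 CPM. This order rests on few UMIs, 8 and 10 in T-like, 4 and 4 in dendritic-like and 6 and 4 in macrophage-like cells. The Poisson intervals of T-like cells, 12.8 to 58.4 and 17.5 to 67.2 CPM, overlapped those of dendritic-like cells, 7.06 to 66.3 and 6.57 to 61.7 CPM. Those of macrophage-like cells, 6.32 to 37.5 and 3.83 to 36.0 CPM, overlapped the intervals of all 3 classes. Endothelial-like cells were at 6.05 and 4.01 CPM and overlapped fibroblast-like cells. Fibroblast-like cells held none in library 1 and 18 UMIs, 10.3 CPM, in library 2, and pericyte-like cells gave 1 UMI. Mesothelial-like, B-like and NK- or ILC1-like cells gave no Il1rl1 UMI, which allows up to 2.06, 5.23 and 14.8 CPM over both libraries. The T-like UMIs were all in cluster 7, led by Cd28 and Cd40lg, at 37.65 and 51.3 CPM. Cluster 15, T-like cells led by Cd163l1, gave none, which allows up to 22.0 CPM over both libraries. The monocyte-like UMIs were in cluster 9, led by Lyz1 and Ear2, at 19.5 and 42.9 CPM, except 1 in cluster 17, led by Mmp12.

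Several of these lower levels came with transcripts of ILC2 in the same barcodes. Of the 11 fibroblast-like cells with an Il1rl1 UMI, 9 held at least 4 UMIs of the 16 ILC2 markers, against 24 of 1009 without one. Without such barcodes 3 UMIs remained and the mean over libraries was 0.914 CPM, against 5.14 CPM with them. Il1rl1 was called higher in fibroblast-like than in mesothelial-like cells (4.33 ± 1.44 on the log2 scale, SE, adjusted p = 0.015 by edgeR), a call that rests on these library 2 barcodes. All 3 endothelial-like cells with an Il1rl1 UMI held at least 4 ILC2 marker UMIs, against 1 of 341 without one. Of the 12 T-like cells with one, 11 did, against 117 of 272 T-like cells without one; several of these markers, such as Il7r and Icos, are also known in T cells. Macrophage-like and dendritic-like cells did not show this: none of their 10 and 6 cells with an Il1rl1 UMI reached 4. Of the 24 monocyte-like cells with one, 4 held at least 4 ILC2 marker UMIs and 6 held at least 10 fibroblast marker UMIs. Without the barcodes that held that many fibroblast marker UMIs the monocyte-like mean was 30.59 CPM from 22 UMIs, against 25.25 CPM from 29 UMIs with them. Mast cells, which carry much ST2, did not form a cluster. The 10 mast markers summed to at most 38 UMIs in any leukocyte sum, from at most 3 of the 10 genes.

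Il1rl1 was higher in ILC2-like than in T-like cells by a log2 fold change of 4.74 ± 0.34 (SE), adjusted p = 1.03e-15 by edgeR, where 7.22% of genes were called. It was higher than in fibroblast-like cells (7.25 ± 0.32 on the log2 scale, adjusted p = 1.39e-24 by edgeR), with 39% of genes called. NK- or ILC1-like cells, the nearest innate relatives, held none, so ILC2-like cells were at least 29.2-fold higher in library 1 and at least 22.7-fold in library 2 (adjusted p = 6.43e-14 by edgeR, 8.77% of genes called). These calls held under all 9 other settings, but the fitted log2 fold changes moved with them, from 4.05 to 11.74 against T-like, from 3.15 to 11.56 against NK- or ILC1-like and from 6.78 to 9.61 against fibroblast-like cells. At resolution 0.5, where the clusters named T-like and NK- or ILC1-like held 88 and 337 cells, they were 11.74 and 3.15, so the size of both differences depends on how the lymphocytes are divided; the at-least folds above are for the main clusters. Against fibroblast-like cells 9.61 came at resolution 2.0, and 9.44 without barcodes carrying markers of 2 classes, beside a median of -0.49 over all genes. Regulatory-T-like cells exceeded T-like cells as well (4.44 ± 0.48 on the log2 scale, adjusted p = 1.72e-09 by edgeR), where 3.61% of genes were called and the median over all genes was -1.02. This comparison and the next were added after the data were seen.

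ILC2-like and regulatory-T-like cells were not told apart in Il1rl1. The log2 fold change was 0.30 ± 0.31 (SE), adjusted p = 0.803 by edgeR, with 4.81% of genes called. Its direction depended on the scaling: the median over all genes was 0.55 with TMM factors and 0.04 with DESeq2 size factors, under which Il1rl1 stood at -0.25. A missed threshold with 24 cells in 1 class does not show equal levels.

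Of 25 receptor signalling genes tested, 9 were higher and none lower in ILC2-like than in T-like cells, where 7.22% of all genes were called. The median log2 fold change was 0.97, against -0.13 over all genes. Nfkb1, which encodes an NF-κB subunit, was at 2030 and 1972 CPM in ILC2-like and 292.6 and 303.3 CPM in T-like cells (adjusted p = 2.06e-15 by edgeR). Nfkbia, the NF-κB inhibitor that NF-κB itself induces, was at 3842 and 2733 against 781.5 and 577.4 CPM (adjusted p = 2.42e-14 by edgeR). Nfkbiz, Rel, Rela, Nfkb2, Tnfaip3, Map2k3 and Dusp1 made up the other calls, with log2 fold changes from 1.17 to 2.46. Upstream, Myd88, the adaptor that binds the receptor, was at 43.7 and 8.18 CPM against 33.3 and 25.6 CPM, and Irak1, Irak2 and Traf6 did not pass either (adjusted p from 0.502 to 1 by edgeR). Against NK- or ILC1-like cells 8 of the 25 were higher, again led by Nfkb1, and 1, Mapk9, was lower, with 8.77% of all genes called. Early response genes also rise during tissue dissociation, and Dusp1 and Jun are on both lists. Of 19 dissociation stress genes, 9 were higher and 2 lower in ILC2-like than in T-like cells, against 7.22% of all genes. Fos, Junb, Ier3 and Zfp36 were among the 9. The part of dissociation in these levels was not tested.

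The list of IL-33 target genes of type 2 cells mixed cytokines with identity and receptor genes such as Gata3 and Il7r. Its genes were split between the Il1rl1-bearing classes, and whether IL-33 induced any of them here was not tested. These genes took part in the clustering, and several are markers of the classes, so their counts describe the classes. Of 18 tested, 13 were higher and 1 lower in ILC2-like than in T-like cells, against 7.22% of all genes called. In regulatory-T-like against T-like cells 6 were higher and 2 lower, against 3.61% of all genes called and a median over all genes of -1.02. Areg, a growth factor for tissue repair, was at 342.0 and 646.5 CPM in ILC2-like and 485.9 and 394.6 CPM in regulatory-T-like cells. Gata3, the transcription factor of type 2 lymphocytes, was at 2336 and 2160 CPM and at 971.8 and 2071 CPM in these classes. The cytokines divided: Il5 (1048 and 638.3 CPM), Il13 (254.7 and 163.7 CPM) and Csf2 (1412 and 1604 CPM) were found in ILC2-like cells and had no UMI in regulatory-T-like cells. T-like cells held them at lower levels, Il5 at 114.8 and 201.0, Il13 at 18.5 and 7.31 and Csf2 at 7.41 and 43.9 CPM. Il10, an inhibitory cytokine, was at 701.8 and 394.6 CPM in regulatory-T-like cells and had no UMI in ILC2-like cells. A count of 0 allows up to 162 and 148 CPM in the 2 regulatory-T-like sums, against 254.7 and 163.7 CPM of Il13 in ILC2-like cells.

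**Figure D3:**
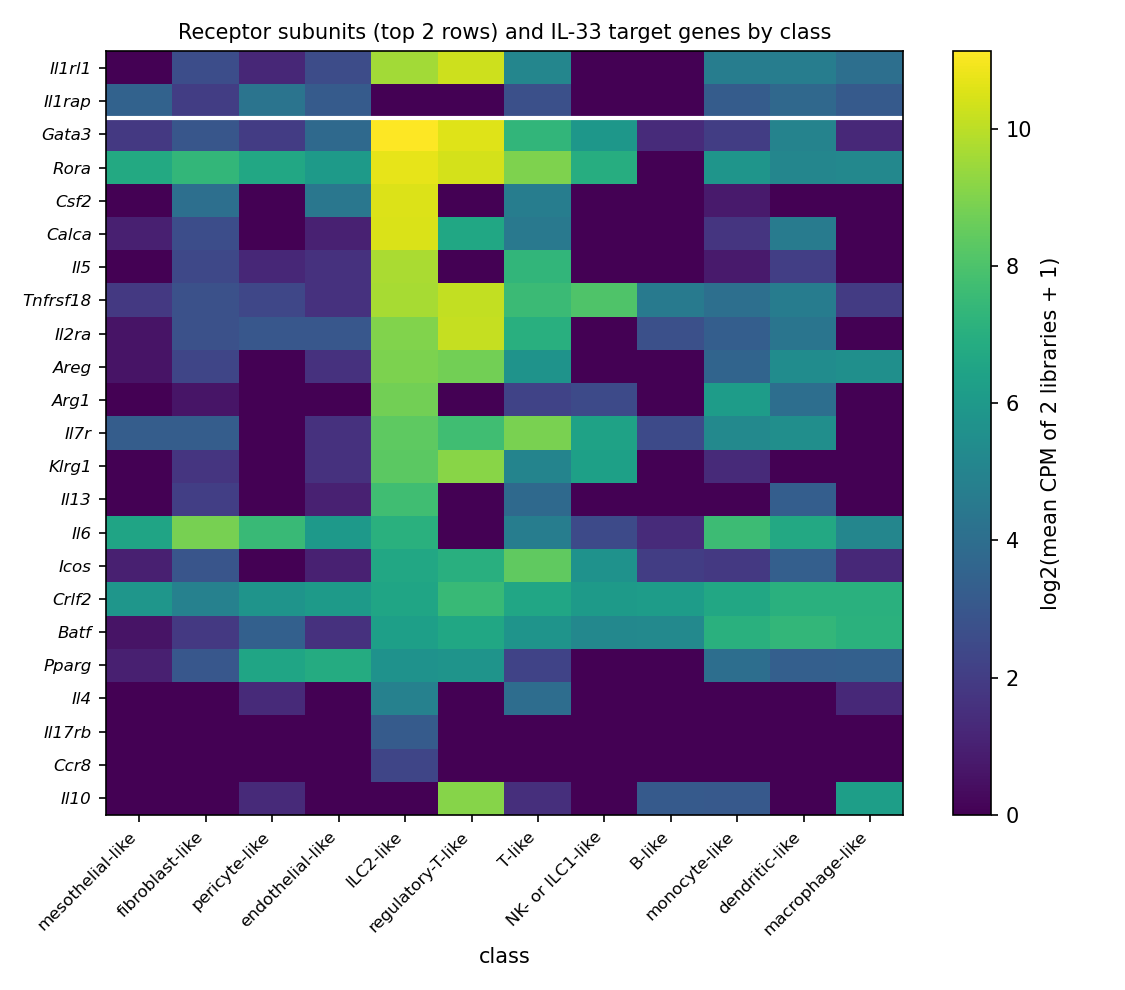
Mean level of the receptor subunits (top 2 rows) and of the genes on the IL-33 target list with any UMI, as log2(mean CPM of 2 libraries + 1), by class. Brighter is higher. Il1rl1, Areg, Gata3 and Il2ra are bright in ILC2-like and regulatory-T-like cells. Il5, Il13 and Csf2 are brightest in ILC2-like cells, with Il5 also in T-like cells, and Il10 is brightest in regulatory-T-like cells.

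Il1rap, the shared signalling subunit, was low in every class. Pericyte-like cells, which wrap small vessels, led with 18.2 and 19.2 CPM from 6 and 7 UMIs. Mesothelial-like cells followed among the classes with over 10 UMIs, at 8.95 and 11.9 CPM, and fibroblast-like cells stood at 4.53 and 1.72 CPM. Dendritic-like, monocyte-like, endothelial-like, macrophage-like and T-like cells had means from 5.53 to 12.7 CPM on 3 to 9 UMIs each. Every class with a UMI overlapped its neighbour in the order.

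The classes with the most Il1rl1 gave no Il1rap UMI. In ILC2-like cells a count of 0 allows up to 11.6 CPM over both libraries, which is above the level of 6 of the 8 classes with a UMI, and in regulatory-T-like cells up to 77.3 CPM. Il1rap was therefore not detectable there at this depth, and these data do not show that it is absent. B-like and NK- or ILC1-like cells gave none either. Il1rap did not pass the filter on low counts and has no tested value in the fits above. Without that filter, it was lower in fibroblast-like than in pericyte-like cells by a log2 fold change of -2.14 ± 0.68 (SE, adjusted p = 0.0107 by edgeR). Against mesothelial-like cells the log2 fold change was -1.54 ± 0.64 (SE, adjusted p = 0.0771 by edgeR), and against macrophage-like cells -1.29 ± 0.91 (SE, adjusted p = 0.415).

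Likeness across classes was measured as Pearson's r of log2(CPM + 10) over the 24 sums, 12 classes in 2 libraries, among 5277 genes. The sums share animals, dissociation and, within a library, depth, so r is a description. Il33 was most like Mmp23 (r = 0.988), Rhou (0.980), Bnc2 (0.976), Wt1 (0.974) and Tmeff2 (0.973), followed by Wnt5a, Efemp1, Zfhx4, Sema3c and C1ra. All 10 had mesothelial-like and fibroblast-like cells as their highest classes. Wt1, the transcription factor of the embryonic serosa, was at means of 461.0 CPM in mesothelial-like and 163.0 CPM in fibroblast-like cells, and Efemp1, a matrix protein, at 1356 and 481.0 CPM. Il1rl1 was most like Areg (0.955), Il2ra (0.944), Usmg5 (0.921), Hilpda (0.920) and Furin (0.900), followed by Gata3, Ltb4r1, Psen2, Spty2d1 and Xlr4b. For Il1rap the values were lower, led by Stom (0.822), Fam129b (0.815), Parvb (0.811) and Ralb (0.810), and then Ifitm2, Lmo1, Ifitm1, Ifitm3 and Piezo1.

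Within fibroblast-like cells, the 144 cells with an Il33 UMI were summed per library and set against 288 cells without one that had been matched on total UMIs. Their medians were 4482 and 4275 UMIs with, and 4424 and 4275.5 UMIs without, in libraries 1 and 2. Of 5048 genes tested, 40 were higher and 65 lower in the cells with Il33, so 2.08% were called by edgeR. Pi16, Krtdap, Dmkn and Sbsn, the leading genes of cluster 14, were among those that rose.

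Pi16, a peptidase inhibitor that marks such fibroblasts, was at 1971 and 1280 CPM in cells with Il33 and 729.1 and 573.2 CPM in cells without (log2 fold change 1.28 ± 0.10, SE, adjusted p = 6.58e-33 by edgeR). Igfbp5, which binds insulin-like growth factors outside the cell, was at 1070 and 1563 against 625.5 and 421.6 CPM (adjusted p = 5.05e-28 by edgeR). Dmkn, Krtdap and Sbsn, neighbouring genes first known from skin, had log2 fold changes of 1.42 ± 0.16, 1.49 ± 0.18 and 1.27 ± 0.15 (SE). Myoc, Dact2, Trnau1ap, Gm15675 and Mapre2 completed the 10 largest increases, from 1.03 to 2.10 on the log2 scale. The rule that named these genes required the same direction in both libraries, so their agreement is no separate support.

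The universal fibroblast progenitor list, built on Pi16 and Dpp4, had 16 genes tested. In the cells with Il33, 8 of them were higher and none lower, with a median log2 fold change of 0.49 against 0.00 over all genes, of which 2.08% were called. The number called depended on the settings. It was 1 of 16 when cells were matched within a cluster (median log2 fold change 0.23), 1 of 16 with DESeq2's Wald test, 4 with no replicate block and 5 at resolution 0.5. With no filter on low counts none of 18 was called, and with all cells without an Il33 UMI, which were not matched on depth, 14 of 17 were. Besides Pi16, Igfbp5 and Dact2, the 8 genes included Sema3c, Cd55, Cd34, Igfbp6 and Timp2, the last at 0.30 ± 0.08 (SE, log2). By edgeR all 16 were called higher in cluster 14, where 19.7% of all genes were called. All 16 were also called higher in cluster 4, the next in Il33, where 9.65% of all genes were called. In cluster 6, the lowest in Il33, 14 of 16 were called lower, against 15.3% of all genes called there. These fits average the other clusters on the log scale, where clusters near 0 count most. By mean CPM of the other clusters, Dact2 was lower in cluster 4, at 14.4 and 21.4 against 19.7 and 28.4 CPM. Igfbp5 was lower there in library 1 only, and the remaining genes were higher in both libraries. The list's genes took part in the clustering, so the cluster counts describe the clusters. Among serosal and stromal transcription factors, Klf4 was higher in the cells with Il33 (0.28 ± 0.08, SE, log2, adjusted p = 0.0302 by edgeR), and none of the other 11 tested passed.

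The genes that fell were of several kinds. Over all genes 2.08% were called, 40 higher and 65 lower of 5048. Ccl5, a chemokine of lymphocytes, was at 2.92 and 55.0 CPM in cells with Il33 and 53.2 and 270 CPM in cells without (log2 fold change -2.55 ± 0.31, SE, adjusted p = 2.67e-13 by edgeR). Cd52, a leukocyte surface protein, and Fabp4 and Rgcc, abundant in capillary endothelium, were lower too, by -2.12, -1.89 and -1.66 on the log2 scale. Of the 14 endothelial markers 2 could be tested and 1, Fabp4, was lower; of the 14 NK or ILC1 markers 1 could be tested, Ccl5. The part of RNA from other cells in these differences was not tested. Mmp3, a matrix-degrading enzyme, was at 2.92 and 25.7 against 71.0 and 66.6 CPM, and Trf, Apoe, Slfn5, Serpina3n and Steap4 completed the 10 largest decreases. Leading genes of other fibroblast-like clusters were lower as well, Cxcl14 by -1.33, Mfap4 by -1.23 and Mgp by -0.67 on the log2 scale. Of 14 fibroblast markers 5 were lower, Gsn, Dcn, Col3a1, Fbln1 and Serpinf1, and 1 higher, Mfap5 (0.38 ± 0.08, SE, log2), against 2.08% of all genes called. Of 19 dissociation stress genes, Socs3 (-0.50 ± 0.11, SE, log2), Zfp36 (-0.31) and Jund (-0.27) were lower and none higher, again against 2.08% of all genes. Of the 22 receptor signalling genes and 6 other alarmins tested, edgeR called none.

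**Figure D4:**
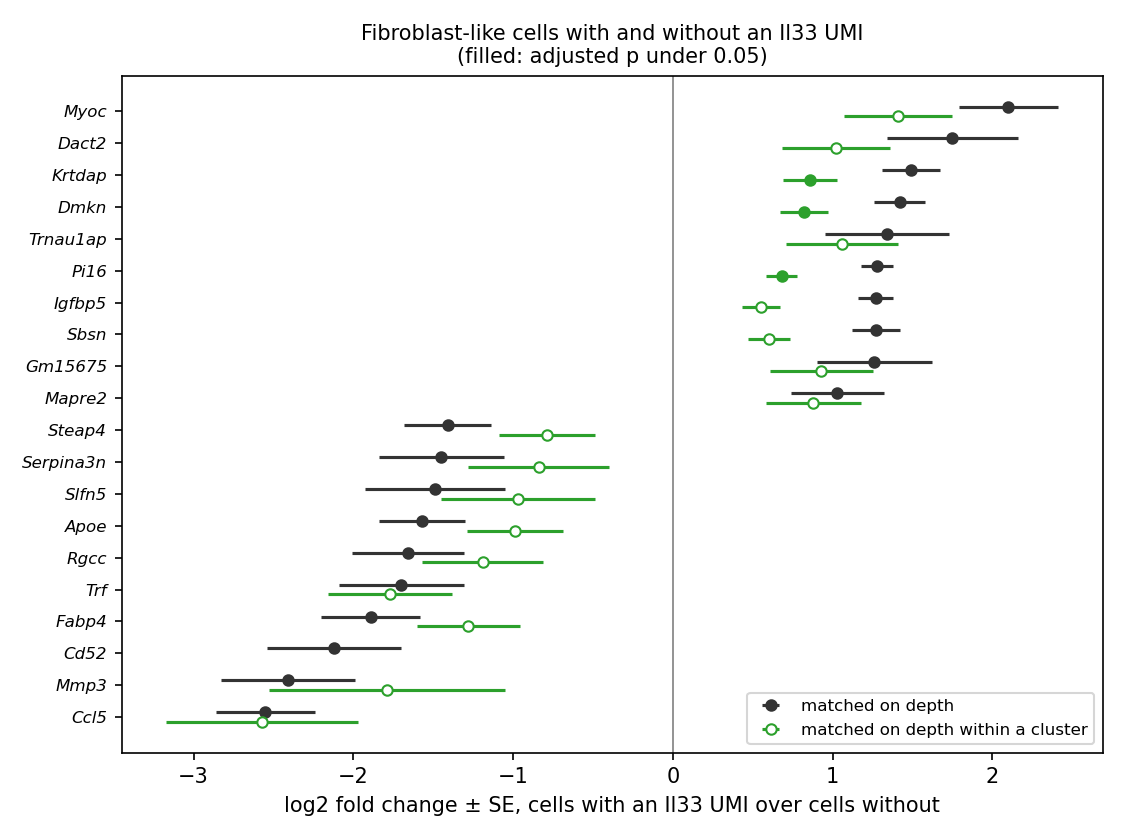
Log2 fold change with its SE for the 20 largest called genes in fibroblast-like cells with an Il33 UMI over cells without one, matched on depth (dark) or on depth within a cluster (green); filled points passed an adjusted p of 0.05. All points keep their side of 0, and Pi16, Dmkn and Krtdap stay filled within clusters, where matching was incomplete. Cd52 has no green point because too few counts remained for the test.

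An alternative added after the data were seen matched cells on depth within the same cluster. This matching was incomplete. The cells with a UMI had medians of 4482 and 4275 UMIs, and the 140 and 134 cells without one 4316.5 and 3746.5 UMIs. In cluster 14 of library 1, 25 of 61 cells held an Il33 UMI, so too few partners were left. That cluster therefore weighed more among the cells with Il33 there. In this comparison 3 genes were higher and 5 lower. The higher ones were Pi16 (0.68 ± 0.10, SE, log2, adjusted p = 0.00268 by edgeR), Krtdap (0.86) and Dmkn (0.82). The lower ones were Ccl7 (-0.53), Mt1 (-0.40), Col3a1 (-0.35), Mt2 (-0.29) and Gsn (-0.26), on the log2 scale. DESeq2's Wald test called 1 gene higher, Pi16 (adjusted p = 2.85e-06), and none lower, with 19 higher and 27 lower at an unadjusted p under 0.05. With edgeR and no filter on low counts no gene was called, with 169 higher and 350 lower at an unadjusted p under 0.05.

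In correlation over single fibroblast-like cells, 5 of the 10 leading genes, Pi16, Krtdap, Dmkn, Igfbp5 and Sbsn, were also among the 10 largest increases of the split. The mean over libraries of Pearson's r with Il33 was 0.25 for Pi16, 0.24 for Krtdap and for Dmkn, 0.22 for Sema3c, Igfbp5 and Sbsn, 0.19 for Cd55 and Col14a1 and 0.18 for Fbn1 and Csrp2. The median over 3485 genes was 0.0156, and 99% of genes were below 0.138. The lowest values were those of Gsn (-0.19), Inmt (-0.16) and Mt1 (-0.16). These values come from the cells already used in the split, and across genes the 2 libraries' correlations went with each other at r = 0.359.

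In mesothelial-like cells little separated the 89 cells with an Il33 UMI from the 155 without. The class was small, so matching took every cell without a UMI and the depths differed, at medians of 7625 and 6544 UMIs with and 6446 and 5291 UMIs without. Of 5043 genes tested 1 was higher and 2 lower, or 0.0595%. Igfbp2, of the same family as Igfbp5, was at 750.7 and 263.8 CPM in cells with Il33 and 184.6 and 178.7 CPM in cells without (log2 fold change 1.20 ± 0.22, SE, adjusted p = 0.00699 by edgeR), so the difference was larger in library 1. Aqp1 and Cldn5, transcripts of endothelium, were lower, at 0 and 16.2 against 141.2 and 88.5 CPM for Aqp1. Of the 6 endothelial markers tested, 1 was lower, and the part of endothelial RNA was not tested. With 1 matched cell for each cell with a UMI no gene was called by edgeR, with 63 higher and 71 lower at an unadjusted p under 0.05, and DESeq2's Wald test on the fuller comparison called none, with 0 higher and 8 lower.

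In the mesothelial-like cells edgeR called none of the list genes, including 9 serosal and stromal transcription factors and 12 progenitor genes. Over single cells the largest mean correlations with Il33 were those of Igfbp2 (0.32), Aldh1a1 (0.30), 1500015O10Rik (0.30), Bcl2 (0.28) and Ildr2 (0.28). For Igfbp2 r was 0.55 in library 1 and 0.091 in library 2. Across 5711 genes the correlations of the libraries went with each other at r = 0.0361, lower than in fibroblast-like cells.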

How the data were processed

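Single-cell RNA of 2 whole mouse mesenteries was analysed. The authors deposited UMI counts per gene and barcode; per the submitters' processing notes they came from Cell Ranger with mm10 (version not given in the sources used here). Barcode suffixes were matched to mice by number, and library was a block in each fit because every class comes from the same animals.

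Scanpy 1.11.5 removed 33 and 28 barcodes, those under 200 genes or over 10% mitochondrial UMIs. Scrublet marked 39 and 4 doublets, which were removed; it marked 4 of 1687 barcodes in library 2, so doublet removal there may be incomplete. Leiden clustering used 2000 variable genes, 30 components, 15 neighbours and resolution 1.0, leaving out 51 genes that include the 3 described. A class needed 3 markers above 2-fold in at least 10% of cells. Thresholds for mixed barcodes were 10 fibroblast marker UMIs in leukocyte classes and 4 ILC2 marker UMIs in fibroblast-like cells, set after seeing the data.

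Counts were summed per library and class and tested with edgeR 4.0.16 (TMM, filterByExpr, quasi-likelihood, Benjamini-Hochberg over all genes, adjusted p under 0.05) in R 4.3.3; DESeq2 1.42.0 was an alternative. The SE given with an edgeR log2 fold change is its absolute value divided by the square root of the test's F statistic. The script was tested on simulated data. Shares used cells thinned to 1000 UMIs. Poisson and Clopper-Pearson intervals are 95% and, like the floor of 3 counts, cover counting error only.

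Named genes were the 10 largest called changes in each direction with the same sign in both libraries and an average log2 CPM of at least 5, the 10 genes most like each gene, and called list genes; 1 gene that the rule names is not reported here. Likeness used genes of at least 50 CPM, or with a UMI in at least 10% of cells. The Wt1 and Efemp1 levels, other cluster genes and all genes called within clusters were picked after their values were seen. The 3 genes and the lists were chosen with earlier results of these data known. Promoter windows are from RefSeq and gene positions from GENCODE M21.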

Additional observations from a re-analysis of the deposited data

How the results depend on the processing

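Over the main results' alternatives, 108 kept direction and call, 23 were weaker, 6 stronger and 2 reversed. The cause was not tested for any of them. For Il33 in fibroblast-like against mesothelial-like cells, the log2 fold change (adjusted p) was -0.68 (0.152) with DESeq2's Wald test, -0.51 (0.126) with no filter on low counts, -0.60 (0.0501) at resolution 2.0, -0.63 (0.0535) when cells under 500 genes or over 5% mitochondrial UMIs were dropped, and -0.55 (0.0507) without barcodes carrying markers of 2 classes. With no replicate block, that is without pairing the classes of an animal, it was -0.57 (0.0828).

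Il1rl1 in ILC2-like against regulatory-T-like cells reversed to -0.25 with DESeq2 size factors and -0.22 with DESeq2's Wald test. DESeq2 size factors moved the median of all genes by -0.51 there, by 0.53 in regulatory-T-like against T-like cells, by -0.27 in ILC2-like against fibroblast-like cells and by -0.11 in fibroblast-like against mesothelial-like cells. Il33 in cluster 6 was -1.42 with the Wald test (adjusted p = 0.0999). With each replicate left out, which leaves 1 library and no test, the difference of log2(CPM + 1) ran from -0.48 to 0.16 in cluster 5 and from -1.83 to 0.16 in cluster 11.

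The split by an Il33 UMI depended most on the settings. In fibroblast-like cells the genes higher and lower were 1 and 0 with the Wald test, 159 and 208 with all cells without a UMI, 3 and 5 matched within clusters, 0 and 0 with no filter, 8 and 5 with no replicate block and 14 and 24 at resolution 0.5. In mesothelial-like cells they were 0 and 0 with 1 matched cell and with the Wald test, 7 and 7 with no doublet removal, 4 and 15 with no filter and 0 and 1 with no replicate block. Unadjusted counts for the settings with no calls stand in the report. Il1rap gave no main test because the filter removed it. Shares of cells with a UMI moved with the depth of thinning, from 29.03% at 500 UMIs to 68.97% at 2000 for Il1rl1 in ILC2-like cells of library 2. Depth limits every statement on Il1rap.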
